A study of Mus musculus with 12 samples.

Results

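BMAL1 is a transcription factor of the circadian clock that binds DNA together with CLOCK, mostly at the E-box CACGTG. Here its peaks were described at 52 genes of the Wnt pathway, out of 21864 protein-coding genes of the mouse genome (build mm10, GENCODE M21). The genes were taken by symbol and comprised the Wnt, Fzd, Dkk, Sfrp, Rspo, Tcf7 and Axin families together with Lrp5, Lrp6, Lef1, Ctnnb1 and Wif1. A peak was assigned to the gene whose transcription start site lay nearest to the middle of the peak. This gave 138 of 35822 peaks, which merged into 76 of 16818 regions when overlapping peaks of different libraries were joined.

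The peaks came from BMAL1-ChIP-seq of mouse adult fibroblasts (MAFs), primary cells grown from the ears of adult female C57BL/6J mice at 3% oxygen. Control MAFs were sham irradiated, whereas senescent MAFs had received 20 Gy of X-rays and were then kept in culture. Both groups were wild type and were synchronized with 100 nM dexamethasone, a glucocorticoid, and fixed 12 h afterwards in 1% formaldehyde for 10 min. There were 3 libraries per group, each with its own peak list, and 6 input libraries without a list that were not analysed here. Whether replicates were separate animals or cultures was not stated, so every p-value measures the spread between these libraries, and a list of BMAL1 peaks cannot show whether fibroblast markers were expressed.

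Wnt proteins are secreted ligands that bind Frizzled receptors and the co-receptors LRP5 and LRP6 on the cell surface. Receptor activation takes beta-catenin (Ctnnb1) out of the reach of a destruction complex built on Axin, and beta-catenin then joins the TCF/LEF factors (Tcf7, Tcf7l1, Tcf7l2, Lef1) on DNA. Secreted DKK, SFRP and WIF1 proteins block the ligands or the co-receptors, and R-spondins strengthen the signal. In connective tissue the pathway is known for its part in fibroblast growth, wound repair and fibrosis.

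The sequences below carry the regions that the results turn on. They are read from the plus strand of mm10 in lower case, 60 bases each, and capitals mark an E-box (CACGTG) or an AP-1 site (TGACTCA or TGAGTCA), the element bound by FOS and JUN dimers. Where neither these nor a TCF/LEF site (CTTTGAT or CTTTGAA, both strands) lay within 100 bp of the centre, the middle of the peak is given. The first set holds regions called in all 6 libraries.
Wnt11, chr7:98815502-98815561, intergenic: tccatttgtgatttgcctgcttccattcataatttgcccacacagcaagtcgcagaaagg
Fzd2, chr11:102604167-102604226, upstream of the start site: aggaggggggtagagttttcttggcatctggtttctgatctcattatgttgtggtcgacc
Tcf7l2, chr19:55620812-55620871, intron of Vti1a: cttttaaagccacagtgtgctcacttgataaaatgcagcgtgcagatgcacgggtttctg
Tcf7l2, chr19:55594218-55594277, intron of Vti1a, E-box: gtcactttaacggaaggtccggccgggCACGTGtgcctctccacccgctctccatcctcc
Tcf7l2, chr19:55594189-55594248, same region, AP-1 site: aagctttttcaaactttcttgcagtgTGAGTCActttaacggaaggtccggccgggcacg

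The second set shows the best-ranked regions that 2 or 3 libraries of a single group called and 0 of the other 3 did. The first 3 lines were senescent only and the last 4, from 3 regions, control only.
Ctnnb1, chr9:120881396-120881455, intergenic, E-box: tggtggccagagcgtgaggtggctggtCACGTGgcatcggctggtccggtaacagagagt
Dkk2, chr3:132087230-132087289, intron of Dkk2, E-box: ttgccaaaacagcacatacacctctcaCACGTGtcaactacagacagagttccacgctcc
Wnt10a, chr1:74816847-74816906, intergenic, no motif: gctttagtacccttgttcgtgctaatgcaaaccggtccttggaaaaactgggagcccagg
Axin2, chr11:109011937-109011996, intergenic, no motif: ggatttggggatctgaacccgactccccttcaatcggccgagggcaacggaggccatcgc
Lef1, chr3:130951631-130951690, intergenic, E-box: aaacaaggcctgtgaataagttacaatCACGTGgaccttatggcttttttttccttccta
Lef1, chr3:130951538-130951597, same region, AP-1 site: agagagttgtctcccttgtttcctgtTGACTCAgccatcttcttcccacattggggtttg
Fzd5, chr1:64836340-64836399, intron of Plekhm3, no motif: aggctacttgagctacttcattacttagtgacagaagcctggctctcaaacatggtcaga

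The third set holds an E-box in regions called in at least 4 libraries and, like the Tcf7l2 E-box region above, was chosen after its values had been seen.
Lrp6, chr6:134544237-134544296, intron of Lrp6, E-box: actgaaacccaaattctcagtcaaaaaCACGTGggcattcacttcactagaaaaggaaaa
Lrp6, chr6:134544276-134544335, same region, AP-1 site: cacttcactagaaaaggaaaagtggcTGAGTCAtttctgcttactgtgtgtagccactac
Fzd7, chr1:59483833-59483892, coding exon of Fzd7, E-box: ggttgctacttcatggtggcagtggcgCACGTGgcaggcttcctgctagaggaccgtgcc

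The 6 lists differed in length within both groups. They held 2794, 3349 and 10601 peaks in control MAFs and 4220, 9805 and 5053 in senescent MAFs. Peaks are given below by their rank within their own list, in which rank 1 is the peak of highest score and tied peaks share a mean rank. The 10 core clock genes examined had a peak in all 6 libraries, and their best peaks ranked 23 or better. The depth of the libraries is unknown from peak lists, and a gene without a peak is only not called at this threshold.

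Of the 52 Wnt genes, 30 (57.7%) had a peak in at least 1 library, against 36.4% of all protein-coding genes. By role these were 9 of 19 Wnt ligands, 0 of 4 R-spondins, 9 of 12 receptors and 3 of 4 TCF/LEF factors. They further included 3 of 3 of the group Axin1, Axin2 and Ctnnb1. The last were 6 of 10 Dkk, Sfrp and Wif1 genes, which were grouped as antagonists by symbol and not by known function. The 22 genes without a peak included the ligands Wnt1, Wnt2, Wnt3, Wnt3a, Wnt6, Wnt7a, Wnt8b, Wnt9a, Wnt9b and Wnt10b and the R-spondins Rspo1 to Rspo4. The rest were the receptors Fzd3, Fzd4 and Fzd10, the Dkk and Sfrp genes Dkk1, Dkk4, Dkkl1 and Sfrp4, and the factor Tcf7. Another 5 genes had a peak in 1 library only. Among them, Wnt5b, Wnt7b and Axin1 were called in senescent replicate 2, Wnt8a in control replicate 3 and Fzd6 in control replicate 1.

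The stretch of genome for which a start site of the gene is the nearest was measured for each gene. Its median was 105.6 kb for Wnt genes and 47.3 kb for all genes. Wnt genes with a peak had a median of 147.9 kb and those without a peak 66.8 kb. Over all genes the medians were 63.55 kb with a peak and 41.23 kb without, in the same direction. Per megabase of these stretches, Wnt genes held 1.51, 1.51 and 5.56 peaks in the control libraries, where all genes held 1.02, 1.23 and 3.89. Within each control library the value of Wnt genes was thus the higher one. In the senescent libraries it was 1.51, 4.29 and 1.62 against 1.55, 3.60 and 1.85, higher in senescent replicate 2 only. The part of the width of these stretches in the number of Wnt genes with a peak was not tested.

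**Figure D1:**
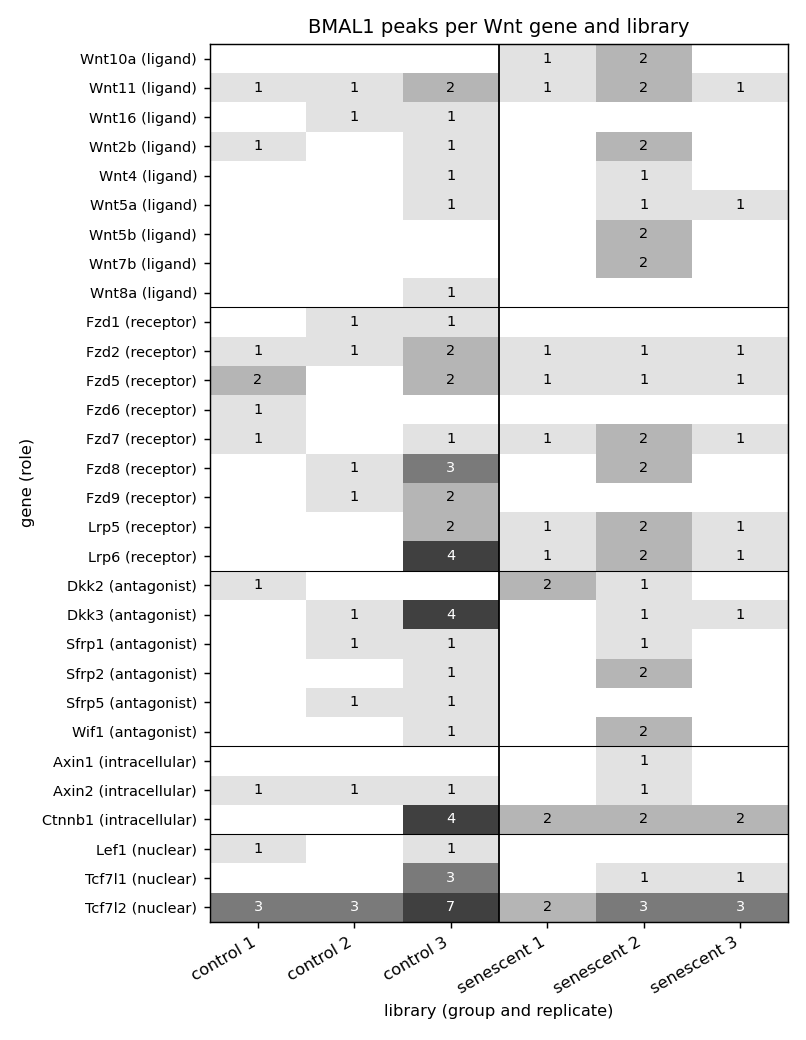
Number of BMAL1 peaks at the 30 Wnt genes with a peak (vertical axis, with the role of each gene in parentheses) in each library (horizontal axis), where darker cells hold more peaks and blank cells none. Fzd2, Tcf7l2 and Wnt11 were filled in all 6 libraries, and control replicate 3 and senescent replicate 2, which had the longest lists, filled the most cells.

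The share of Wnt genes with a peak overlapped between the groups. It was 19.2%, 21.2% and 46.2% in the control libraries and 19.2%, 44.2% and 21.2% in the senescent libraries, for means of 28.8% ± 15.0 and 28.2% ± 13.9 (SD, n = 3 each). Over all genes the share was 15.2% ± 8.84 in control and 19.2% ± 6.44 in senescent MAFs. The share of Wnt genes divided by that of all genes was 2.06, 1.95 and 1.82 in control and 1.33, 1.67 and 1.28 in senescent libraries. This ratio did not overlap between the groups, with means of 1.95 ± 0.12 and 1.43 ± 0.21. Wnt genes likewise held 4.65, 3.88 and 4.53 of every 1000 peaks in control lists and 3.08, 3.77 and 2.77 in senescent lists, which did not overlap either. Both are descriptions of a chosen list, with no test.

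**Figure D2:**
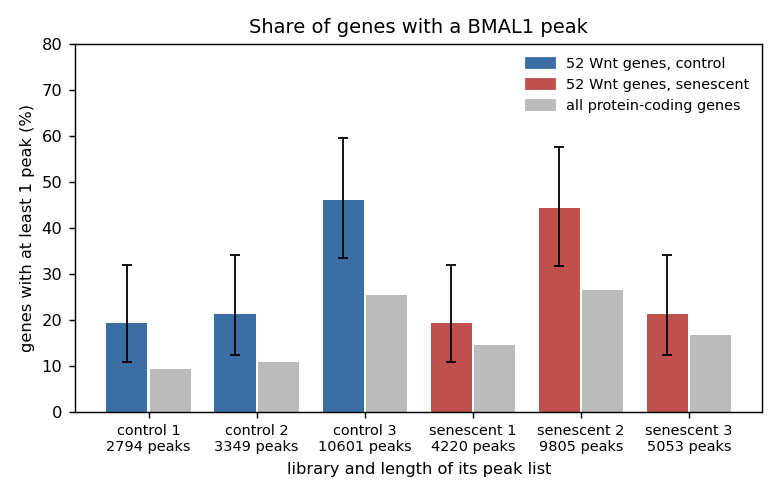
Percentage of the 52 Wnt genes (coloured bars, with 95% Wilson intervals that cover counting error only) and of all protein-coding genes (grey bars) with at least 1 peak, by library, with the length of each list below it. The coloured bars stood above the grey ones in all 6 libraries, and by the larger ratio in the 3 control libraries.

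Peaks at Wnt genes lay farther from start sites than peaks in general. The median distance of their regions was 34.9 kb, against 8.04 kb over all regions, and 38.2% against 21.7% lay beyond 50 kb. The stretches nearest to a start site, which bound these distances, were also longer at Wnt genes (median 105.6 kb against 47.3 kb). Their part in the distances was not tested. Only 9 of 76 regions (11.8%) were within 1000 bp of a start site, where 33.9% of all regions were. Of those 9 promoter regions, 8 were called in 1 library, and the remaining one was at Fzd2. Over all genes, 2762 of 5701 promoter regions were called in 1 library. Introns held 27 of the regions, 45 were intergenic and 4 fell on an exon. In all, 22 lay inside the Wnt gene itself and 9 inside a neighbouring gene.

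All lists of control MAFs were themselves more distal. Peaks beyond 50 kb made up 22.7%, 21.3% and 23.1% of the control lists and 17.0%, 14.8% and 16.9% of the senescent lists. At Wnt genes the shares were 53.8%, 38.5% and 41.7% in control and 30.8%, 29.7% and 42.9% in senescent libraries, which overlapped. The part of this shift in the larger control ratio of Wnt genes was not tested.

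**Figure D3:**
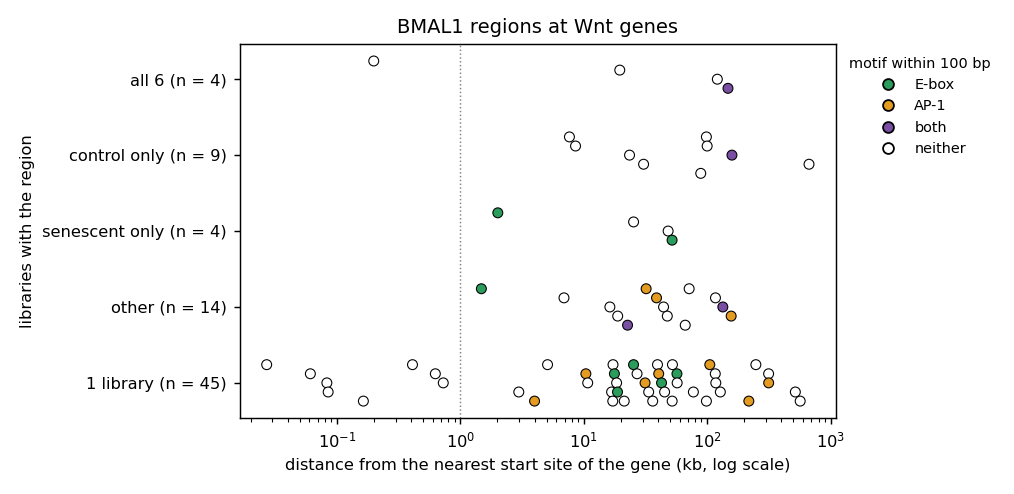
Distance of the 76 regions from the nearest start site of their gene in kb (log scale), by the libraries that called them, where "control only" and "senescent only" mean 2 or 3 libraries of that group and 0 of the other, and "other" covers the remaining regions of 2 or more libraries. Colours show an E-box, an AP-1 site, both or neither within 100 bp of the centre, and the dotted line marks 1 kb. Only Fzd2 lies left of that line outside the regions of 1 library.

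A peak in all 6 libraries was found at 3 Wnt genes (5.77%, against 5.14% of all genes). They were Wnt11, which signals mainly without beta-catenin, the Frizzled receptor gene Fzd2, and Tcf7l2, which encodes the TCF4 factor. Within this group the rank of the best peak was compared by an exact two-sided permutation test on the log2 scale, for which 3 libraries against 3 cannot give a p below 0.1.

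At Fzd2 the best peak lay 199 bp upstream of the start site (chr11:102604024-102604505). It ranked 342, 753.5 and 616 in the control libraries and 1789.5, 4145.5 and 1959 in the senescent libraries. Every control library thus ranked it better than any senescent library. The log2 rank was 9.08 ± 0.59 in control and 11.25 ± 0.67 in senescent MAFs (SD, n = 3), a difference of 2.17 (exact permutation p = 0.1, Benjamini-Hochberg adjusted p = 0.265 over 1123 genes). A second Fzd2 peak, 728 bp upstream, was called in control replicate 3 only.

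At Tcf7l2 (chr19:55741820-55933654) the best peak ranked 170, 504.5 and 232 in control libraries and 725.5, 2550 and 2720 in senescent libraries. Again the groups did not overlap, and the difference was 2.66 in log2 rank (exact permutation p = 0.1, adjusted p = 0.265). At Wnt11 the single region called in all libraries was 19.6 kb upstream of the start site (chr7:98815178-98815923). Its ranks were 741, 245.5 and 970 in control and 948, 729 and 351 in senescent MAFs, which overlapped (difference 0.15, exact permutation p = 0.9, adjusted p = 0.958). Of the 3 genes, 2 therefore ranked better in every control library and 0 in every senescent library. Over all 1123 genes called in 6 libraries, 19.4% ranked better in control and 18.3% in senescent MAFs without overlap. The smallest adjusted exact permutation p was 0.265, and this design could give none below 0.1. A rank depends on the other peaks of its list and does not measure the height of a peak.

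Tcf7l2 had the most peaks of any Wnt gene, 21 over the 6 libraries. Their numbers were 3, 3 and 7 in control and 2, 3 and 3 in senescent MAFs. Divided by the length of the list they were 1.07, 0.896 and 0.660 per 1000 peaks in control libraries and 0.474, 0.306 and 0.594 in senescent libraries. The groups did not overlap (0.877 ± 0.21 against 0.458 ± 0.14, SD, n = 3, exact permutation p = 0.1, adjusted p = 0.490 over 5364 genes).

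Both Tcf7l2 regions that were called in all 6 libraries lay upstream of the gene, in introns of the neighbour Vti1a. The region 121.0 kb upstream (chr19:55620457-55621138) held neither an E-box nor an AP-1 site within 100 bp of its centre. It ranked 170, 504.5 and 232 in control and 725.5, 2550 and 3870.5 in senescent MAFs. The region 147.6 kb upstream (chr19:55594065-55594421) held both motifs, whose sequences are given above. It ranked 611.5, 1880 and 998.5 in control and 2417, 2629.5 and 2980 in senescent MAFs. In both regions each control library ranked better than each senescent one, by 2.83 and 1.35 in log2 rank (exact permutation p = 0.1, adjusted p = 0.278 over 1106 regions).

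A further Tcf7l2 region lay in an intron of the gene, 134.8 kb from its first start site (chr19:55876470-55876920). It was called in all 3 control libraries, at ranks 915, 681.5 and 1016, and in senescent replicate 2 alone, at rank 2856.5. Control replicate 3 also called a peak 27 bp from the start site, which holds the TCF/LEF motif CTTTGAA, and senescent replicate 3 took its best peak, at rank 2720, from a region 134.1 kb from the nearest start site that holds an E-box and an AP-1 site. With regions in place of genes, 3 of the 4 Wnt regions called in all libraries ranked better in control without overlap, of which 2 belonged to Tcf7l2, and 0 in senescent MAFs. Among all 1106 such regions the shares were 18.4% and 17.6%.

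**Figure D4:**
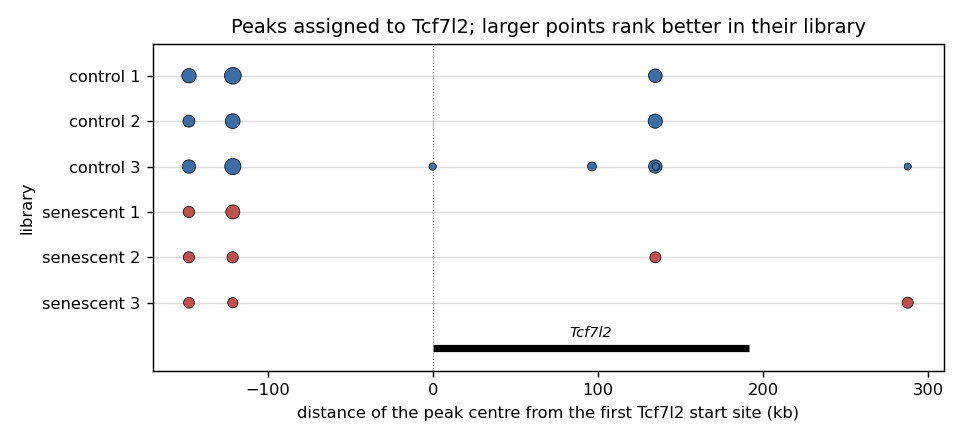
Peaks assigned to Tcf7l2 in each library (rows) by the distance of their centre from the first start site of the gene in kb, where larger points rank better in their own list and the black bar is the transcribed gene. The 2 upstream positions were filled in all 6 libraries, whereas the position at 134.8 kb was filled in 3 control libraries and 1 senescent library.

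Genes called in one group only were next taken, with at least 2 libraries of that group and 0 of the other. Wnt10a, a ligand that acts through beta-catenin, was the only senescent gene (1.92%, against 3.42% of all genes). It had 0, 0 and 0 peaks in control and 1, 2 and 0 in senescent MAFs. Its shared region lay 25.4 kb past the start site (chr1:74816683-74817031) at ranks 1394.5 and 6874.5.

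Control-only genes numbered 5 (9.62%, against 1.64% of all genes). They were the receptors Fzd1 and Fzd9, the nuclear factor Lef1, the antagonist Sfrp5 and the ligand Wnt16. Each had 0 peaks in all 3 senescent libraries. Fzd1, Sfrp5 and Wnt16 had 0, 1 and 1 peaks in the control libraries, Fzd9 had 0, 1 and 2, and Lef1 had 1, 0 and 1. All 5 thus needed control replicate 3, which had the longest list, and without it 0 control-only genes were left. None of the 5 was called in all 3 control libraries.

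At all but Lef1, the region that 2 control libraries shared ranked from 6239 to 10580 in the long list. At Fzd1 the region 30.6 kb upstream ranked 2917.5 in control replicate 2 and 6239 in control replicate 3. At Fzd9 the region 23.5 kb upstream ranked 2031.5 and 9293.5 in the same libraries. At Wnt16 a region 7.66 kb upstream ranked 3144.5 and 9430. The Sfrp5 region, 8.59 kb past the start site and in a UTR of Zfyve27, ranked 3144.5 and 10580, close to the end of the 10601 peaks. The Lef1 region, 158.9 kb upstream and with both motifs, was placed higher, at 1730 in control replicate 1 and 3070.5 in control replicate 3. Fzd9 had a further region 25.3 kb upstream, with an E-box, which control replicate 3 alone called, at rank 2823.

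When the lists were cut to the same number of best peaks, Axin2, Dkk3 and Fzd5 were the control-only genes (5.77%, against 2.07% of all genes under that setting). Lrp6 was then the senescent-only gene (1.92%, against 2.59%), and 0 genes were shared with the sets above. Axin2 is itself a target of beta-catenin and encodes a scaffold of the destruction complex. Its peaks numbered 1, 1 and 1 in control and 0, 1 and 0 in senescent MAFs. The control peaks were one region 88.8 kb past the start site (chr11:109011663-109012056), at ranks 656, 593 and 354, and no senescent library called it. The senescent peak was elsewhere, 33.6 kb upstream, at rank 7236.5. Of all regions, 1.58% were called in 3 of 3 control and 0 of 3 senescent libraries, and among Wnt regions Axin2 was the single case.

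The converse case was Ctnnb1, which encodes beta-catenin. A region 52.0 kb upstream (chr9:120881303-120881530), with an E-box, was called in 3 of 3 senescent libraries at ranks 2904.5, 5317.5 and 4126 and in 0 of 3 control libraries. Of all regions, 3.73% had this pattern in senescent MAFs, and Ctnnb1 was the single case among Wnt regions. At the level of the gene Ctnnb1 had 0, 0 and 4 peaks in control and 2, 2 and 2 in senescent MAFs, and the 4 control peaks were other regions of control replicate 3. Its peaks per 1000 were 0.126 ± 0.22 and 0.358 ± 0.14 (SD, n = 3, exact permutation p = 0.2, adjusted p = 0.724).

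The co-receptors were called in every senescent library and in control replicate 3. Lrp6 had 0, 0 and 4 peaks in control and 1, 2 and 1 in senescent MAFs. The region in its intron that holds an E-box and an AP-1 site, 22.7 kb from the start site (chr6:134544071-134544570), ranked 957, 1943.5 and 824 in the senescent libraries. In control MAFs it was called once, at rank 7631 in control replicate 3. Lrp5 had 0, 0 and 2 peaks in control and 1, 2 and 1 in senescent MAFs. An intronic Lrp5 region 47.6 kb from the start site, with neither motif, ranked 4548 in control replicate 3 and 3647, 9459 and 2081 in the senescent libraries.

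Per 1000 peaks of the list, Lrp5 was higher in every senescent library (0, 0 and 0.189 in control, 0.237, 0.204 and 0.198 in senescent; 0.0629 ± 0.11 against 0.213 ± 0.021, SD, n = 3, exact permutation p = 0.1, adjusted p = 0.490). Lrp6 overlapped between the groups (0.126 ± 0.22 against 0.213 ± 0.021, exact permutation p = 0.4, adjusted p = 0.724). Of the 25 Wnt genes with peaks in at least 2 libraries, 1 (Lrp5) was higher in senescent MAFs without overlap and 1 (Tcf7l2) lower. Both calls depended on the lists, since with equal numbers of peaks Lrp6 took the place of Lrp5, and with scores above the median Lrp6 and Axin2 took the places of Lrp5 and Tcf7l2. Among all 5364 genes tested the shares were 14.4% and 5.95%. The smallest adjusted exact permutation p was 0.490, and this design could give none below 0.1.

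**Figure D5:**
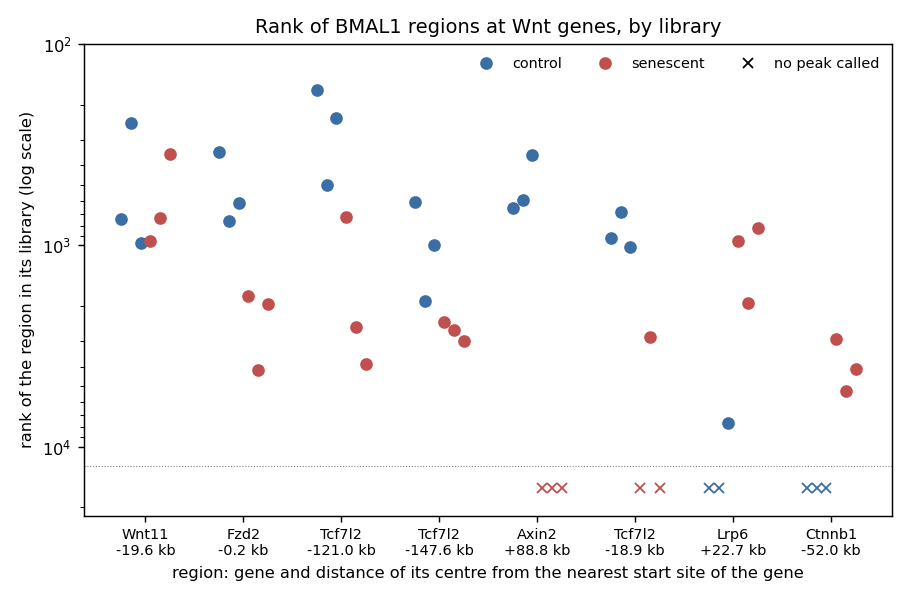
Rank of 8 regions within each library (log scale, better ranks at the top), with control libraries in blue and senescent ones in red, and crosses below the dotted line for libraries that did not call the region. The Fzd2 and both upstream Tcf7l2 regions ranked better in the 3 control libraries, Wnt11 overlapped, Axin2 was called in control libraries only, Ctnnb1 in senescent ones only, and Lrp6 in 1 control library at rank 7631.

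The remaining genes with many peaks were called unevenly. Among the receptors Fzd5 had 2, 0 and 2 peaks in control and 1, 1 and 1 in senescent MAFs, Fzd7 had 1, 0 and 1 against 1, 2 and 1, and Fzd8 had 0, 1 and 3 against 0, 2 and 0. The Fzd7 region in the coding exon, with its E-box, ranked 756.5 and 2477.5 in control and 1185, 2599 and 2081 in senescent MAFs, and control replicate 2 did not call it. Dkk3, a secreted protein related to the DKK antagonists, had 0, 1 and 4 peaks in control and 0, 1 and 1 in senescent MAFs. Its intronic region 16.3 kb from the start site ranked 1122 and 1582 in control replicates 2 and 3 and 5491.5 in senescent replicate 2.

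By region, 4 of the 76 were called in all libraries (5.26%, against 6.58% of all regions). A further 4 were senescent only (5.26%, against 9.44%) and 9 were control only (11.8%, against 5.86%). The senescent-only regions were those of Ctnnb1 and Wnt10a, one in an intron of the antagonist gene Dkk2, 2.01 kb from its start site, and one 48.3 kb upstream of the ligand gene Wnt5a in an intron of Erc2. The control-only regions were nearest to Axin2, Fzd1, Fzd5, Fzd8, Fzd9, Lef1, Sfrp1, Sfrp5 and Wnt16. Of these 9 regions, 5 lay beyond 50 kb, the farthest 669.2 kb upstream of Fzd8. The nearest start site does not show which gene a region acts on. Control replicate 3 had called all 9. Regions of 1 library numbered 45 (59.2%, against 55.7% of all regions). Among them, 21 came from control replicate 3 and 18 from senescent replicate 2.

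The share of motifs at Wnt genes did not differ from that of all regions beyond counting error. An E-box lay within 100 bp of the centre in 12 of 76 regions (15.8%, 95% Wilson interval 9.27 to 25.6), against 17.0% of all regions. An AP-1 site lay in 14 (18.4%, 11.3 to 28.6), against 16.6%, and a TCF/LEF site in 7 (9.21%, 4.53 to 17.8), against 5.94%. Windows of equal size placed 2000 bp away on both sides of the Wnt regions gave 1.32%, 3.29% and 5.26%. Around all regions such windows gave 2.66%, 3.62% and 7.6%. Over all regions the TCF/LEF share was thus lower inside the regions (5.94%) than beside them. The palindrome of the glucocorticoid receptor, which dexamethasone activates, was in 0 Wnt regions and in 0.0297% of all regions. Neither E-box nor AP-1 site was found in 54 Wnt regions (71.1%, against 68.6%). Both motifs were held by 4 of 76 Wnt regions and by 376 of all 16818 regions.

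Set by pattern, an E-box lay in 1 of 4 Wnt regions called in all libraries, against 45.1% of all such regions. It lay in 2 of 4 senescent-only regions, against 38.4%, and in 1 of 9 control-only regions, against 8.62%. AP-1 sites were in 0 of 4 senescent-only Wnt regions, against 23.6%, and in 1 of 9 control-only ones, against 15.1%. With so few regions none of these differences can be told from counting error. In RefSeq promoters (mm10, 250 bases before to 50 after a start site), which were matched for 35 of the 52 genes, CACGTG was present in 5 of 44 promoters (11.4%, against 7.15% of all). These belonged to Fzd9, Lef1, Rspo4, Wif1 and Wnt9a, and 0 of these 5 genes had a peak within 1000 bp of its start site.

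The other genes of the pathway were taken from a list of 52 that covers Wnt secretion, further co-receptors, Dishevelled proteins, the destruction complex, co-activators, co-repressors and targets. Of these, 32 had a peak, where 36.4% of all genes did. The share per library was 26.3% ± 15.5 in control and 37.8% ± 10.6 in senescent MAFs (SD, n = 3). Over all genes it was 15.2% ± 8.84 and 19.2% ± 6.44, also higher on average in senescent MAFs. The stretches nearest to a start site were wide in this list too (median 116.5 kb, against 47.3 kb for all genes). Per megabase the list held 1.36, 1.15 and 4.91 peaks in control libraries, where all genes held 1.02, 1.23 and 3.89. In senescent libraries it held 2.19, 6.06 and 2.72, against 1.55, 3.60 and 1.85. The part of this width in the number of genes with a peak was not tested. Of the 52 genes of this list, 5 were called in all 6 libraries (9.62%, against 5.14% of all genes). They were Dvl2, which relays the receptor signal, the cell cycle and growth targets Ccnd1 and Myc, and the co-repressors Tle1 and Tle3. Dvl2 ranked 94, 60 and 55 in control and 120, 64 and 92.5 in senescent MAFs, and Ccnd1 ranked 314.5, 272.5 and 171 against 200, 280.5 and 389. Both overlapped between the groups.

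Senescent-only genes of that list were 3 (5.77%, against 3.42% of all genes), and 0 were control only, against 1.64%. The 3 were Apc, a scaffold of the destruction complex, Daam2, a formin that binds Dishevelled, and Kremen1, a receptor for DKK proteins. Apc had 1 peak in each senescent library, at ranks 2278, 4415 and 4838.5, and Daam2 likewise, at 1644, 3935.5 and 1678. Of 25 genes tested per 1000 peaks, 4 were higher in senescent MAFs without overlap (Apc, Ccnd1, Daam2 and Gsk3b) and 1 was lower (Tle3), against 14.4% and 5.95% of all genes. Tle3 also ranked better in every control library (621, 365.5 and 211, against 950, 1142 and 2289). It was 1 of the 5 genes of that list called in all libraries, against 19.4% of all such genes. In senescent MAFs 0 of the 5 ranked better without overlap, against 18.3%.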

How the data were processed

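BMAL1-ChIP-seq of 3 control and 3 senescent MAF libraries was analysed from the peak lists of the authors, grouped by sample title. The authors mapped paired reads to mm10 with the Burrows-Wheeler Aligner, removed duplicates with Picard and called peaks in each library separately with MACS2 at an FDR of 1%. The MACS2 version and the use of inputs as controls are not given in the sources used here. The scores that the authors deposited with the peaks were taken to be −log10 q-values, since the lowest lay at 2.02 to 2.12 in every library. They depend on depth, which is unknown, and were used only to rank peaks within a library. A single sequencing lane is named in the headers of all lists.

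Peaks were assigned to the nearest start site of a protein-coding transcript (GENCODE M21, basic set) by their midpoint, and peaks overlapping by at least 1 bp were merged into regions. Peaks per 1000 of the list were compared for genes called in at least 2 libraries, and log2 ranks for genes or regions called in all 6. Both used exact two-sided permutation tests over the 20 arrangements of libraries with Benjamini-Hochberg adjustment over all features tested. A gene counted as different where the groups did not overlap, which is the smallest exact permutation p, 0.1. Motifs were searched on both strands within 100 bp of the centre of the best-ranked peak. Intervals are 95% Wilson. Genes with values in the text were those called in all libraries or in one group, those that did not overlap, and the 10 with the most peaks. Axin2 met none of these rules and was added for its control-only region and its call at equal numbers of peaks. Members and lists were chosen with earlier results of these data known. The test of peaks per 1000 was checked on simulated counts that were set higher than those of these lists. The test of ranks was not simulated. Alternatives covered list length, score, distance, overlap, motif window, the replicate block and leaving out each library. Python 3.11.15, numpy 2.4.6, pandas 2.3.3, scipy 1.17.1 and pysam 0.24.0 were used.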

Additional observations from a re-analysis of the deposited data

How the results depend on the processing

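Of 134 alternative values, 91 stayed within 1.5 times a count, within the error of a share or, for rank differences, in the same direction, 40 moved further and 3 rank differences changed sign. Staying within these limits does not mean the same genes, since 6 of the 26 such counts whose genes were compared shared 0 genes with the reported set. For the gene and region counts below, a share over all genes was computed only for control-only and senescent-only genes at equal numbers of peaks. The other counts were not set beside all genes and cannot be read as particular to Wnt genes. The difference in the share of Wnt genes with a peak, senescent minus control, ran from -8.65 to 8.01 percentage points and changed sign in 5 of 11 alternatives, all within the SD of 15.0. With lists cut to equal numbers of peaks or to scores above the median, control-only genes numbered 3 and 3. Under both, Lrp6 replaced Lrp5 as the gene higher in senescent MAFs per 1000 peaks, and with scores above the median Axin2 replaced Tcf7l2 as the lower one. Equal numbers also gave 2 genes lower (Axin2 and Tcf7l2) in senescent MAFs per 1000 peaks, and 1, 4 and 1 regions called in all libraries, in control only and in senescent only. Requiring 3 of 3 libraries left 0 control-only and 0 senescent-only genes. Peaks within 1000 bp gave 1 gene in all libraries and 0 control-only genes, and peaks within 50 kb gave 4 senescent-only genes and 1 gene ranked better in control (Fzd2). Counts not divided by list length gave 0 higher and 0 lower genes. Within 50 bp of the centre an AP-1 site was in 7.89% and a TCF/LEF site in 2.63% of Wnt regions, against 10.2% and 2.88% of all regions.

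Leaving out 1 library moved the genes called in all libraries between 3 and 5 (5 without control replicate 2) and the control-only genes between 0 (without control replicate 3) and 9 (without senescent replicate 2), with 1 without control replicate 2. Senescent-only genes ranged from 0 (without senescent replicate 1 or 2) to 6 (without control replicate 3), with 2 without control replicate 1. Genes higher in senescent MAFs per 1000 peaks numbered 1 to 3 (3 without control replicate 3, 2 without control replicate 1 or any senescent replicate). Genes lower numbered 1 to 7 (7 without control replicate 1, 4 without control replicate 3, 2 without control replicate 2 or senescent replicate 2). Control-only regions ranged from 1 (without control replicate 3) to 11, with 3 without control replicate 2, and senescent-only regions from 1 (without senescent replicate 2) to 7 (without control replicate 3), with 2 without senescent replicate 1.

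The rank differences of Fzd2 (1.79 to 2.41) and Tcf7l2 (2.32 to 3.28) kept their direction without each library, and were 1.81 and 2.30 with ranks as a percentage of the list. That of Wnt11 ranged from -0.443 (without control replicate 2) to 0.568, was -0.149 without senescent replicate 1, and was -0.206 as a percentage of the list. Ranking the same region in every library, an alternative chosen after seeing the data, gave 2 genes better in control. Between libraries of the same replicate number the correlations of deviations were 0.114, -0.111 and -0.102. They cannot show whether such libraries shared an animal, a culture or a day. With the replicate block, 2 genes were higher and 2 lower per 1000 peaks, and no sign-flip test of 3 pairs can give a p below 0.25. Peak lists cannot show a weak site that was not called, and unequal list lengths limit every statement on absence.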
